A study of Homo sapiens with 57 samples.

Results

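Transcripts of 8 genes that mark colon epithelium were followed in cells expressing 3 forms of the elongation factor Spt5. The genes are EPCAM, CDH1, KRT18, KRT20, VIL1, CDX2, CEACAM5 and LGALS4. They are represented by 9 transcripts, chosen by identifier from a fixed list, of the 228715 that the tables hold. KRT18 has 2 of the 9 and every other gene has 1. The list was made with earlier results of these data known. The tables name transcripts only by identifier, so gene names are those given with the list, and values are for single transcripts and not gene totals.

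All cells were HCT116, a human colorectal carcinoma line, carrying an Spt5-HA-dhfr fusion and kept without trimethoprim, which otherwise stabilises proteins fused to a dhfr degron. An Avi-tagged fragment of Spt5, residues 1 to 820, was induced from a pCW57 construct with 2 ug/ml doxycycline for 24 hours in medium with hygromycin, G418 and blasticidin. The 3 groups, each of 3 mRNA libraries, carry different versions of CTR1, a region of Spt5, within the fragment, and the labels call them TE7, TA7 and WT. WT therefore names the form of the induced fragment, and its cells carry the same fusion and received the same agents as the others. The labels do not say whether a line is 1 clone or a pool, and a form of CTR1 and the cell line made to express it cannot be told apart. Nor do they say that replicates came from separate cultures. The p-values therefore cover the scatter among these libraries alone, part or all of which may be technical.

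Simple epithelia such as the colon lining are held together by adhesion proteins and stiffened by keratin filaments. CDH1 encodes E-cadherin, the calcium-dependent adhesion molecule of adherens junctions, EPCAM a membrane glycoprotein of epithelial cells, and KRT18 a type I keratin of simple epithelia that pairs with keratin 8. Intestinal cells add a layer of genes specific to the gut, in which the homeodomain transcription factor CDX2 sets intestinal identity. KRT20 is a keratin of differentiated intestinal cells, VIL1 encodes villin, the actin-bundling protein of microvilli, CEACAM5 encodes carcinoembryonic antigen, and LGALS4 encodes galectin-4, a galactoside-binding lectin of the gut.

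The libraries held 68578355 to 73794335 estimated reads in TE7, 65723341 to 90805283 in TA7 and 64364751 to 67628672 in WT. WT replicate 1 stood apart from the rest, with the lowest scaling factor (0.9202, against 0.9707 to 1.0373 in the other libraries) and reads for 87229 transcripts, against 95401 to 99993 elsewhere. Without WT replicate 1, the counts of called transcripts given below were the same. Leaving out WT replicate 1 together with TA7 replicate 1, an alternative chosen after seeing the data, also gave the same counts of 5, 0 and 4.

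The listed transcripts of the general epithelial genes were well detected in every library, and those of VIL1, CEACAM5 and LGALS4 were nearly absent. TPM, the deposited abundance estimate, is a level per transcript length and can be compared between transcripts of one library. In WT libraries the order of mean TPM was KRT18 (ENST00000388835), EPCAM, CDH1, CDX2, KRT18 (ENST00000388837) and KRT20, and the ranges of these 6 did not overlap between neighbours. VIL1, LGALS4 and CEACAM5 followed, all at 0.0354 TPM or less in every WT library, with overlapping ranges. The general epithelial transcripts were thus present in all 3 groups, whereas those of 3 of the 5 intestinal genes, VIL1, CEACAM5 and LGALS4, were at or near 0. Other transcripts of these genes and mesenchymal markers were not analysed, so the epithelial state is described by the listed transcripts alone. In TE7 libraries KRT18 (ENST00000388837) stood above CDH1, which stood above CDX2, with no overlap between neighbours down to KRT20. In TA7 libraries KRT18 (ENST00000388837) also stood above CDX2, but below CDH1.

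**Figure D1:**
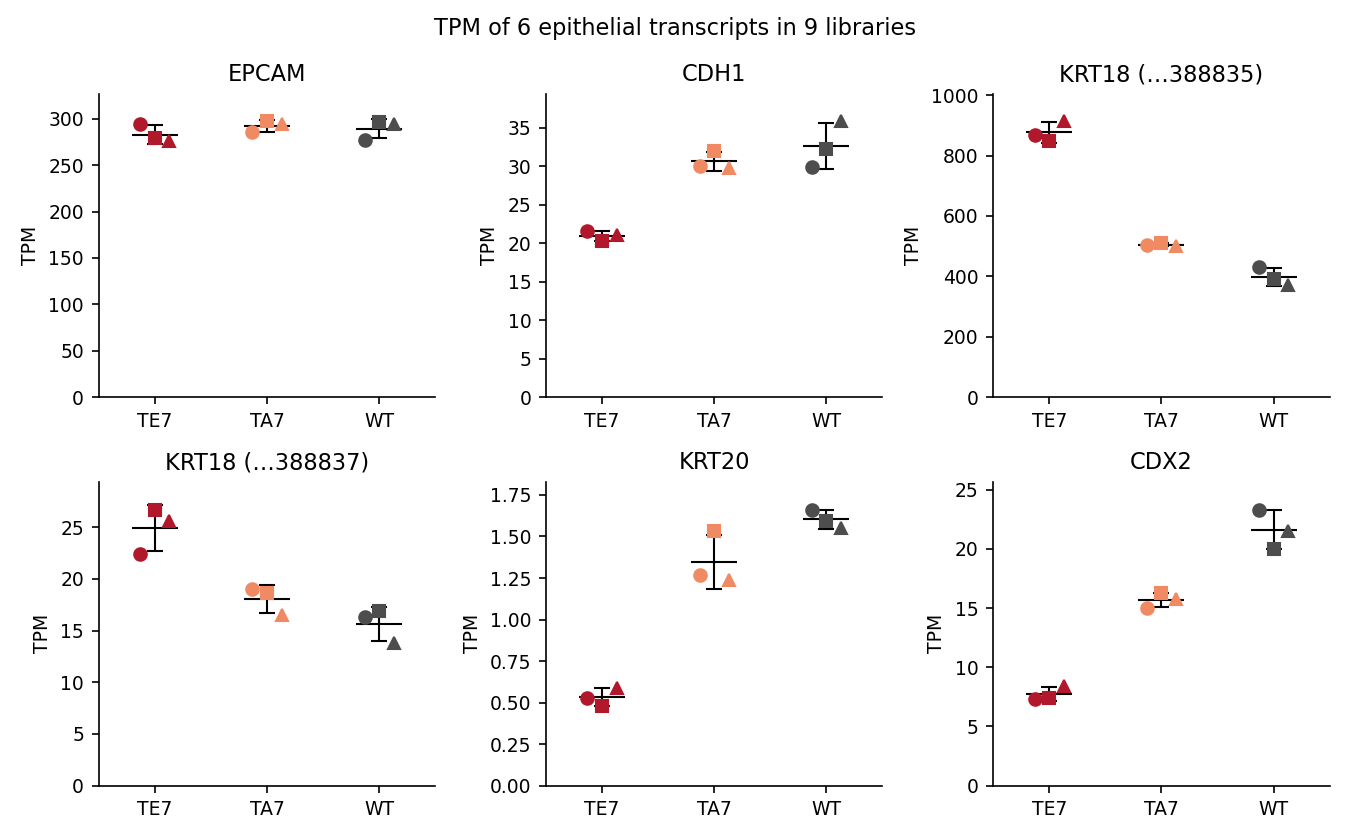
Levels in TPM of the 6 best detected transcripts, 1 panel each, on linear axes from 0. Symbols are libraries (circle, square and triangle for replicates 1, 2 and 3), the wide bar is the mean and the error bar the SD of the 3 libraries. EPCAM lies between 276 and 297 TPM in all 9 libraries, CDX2 and KRT20 are lowest in TE7, and both KRT18 transcripts are highest there.

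EPCAM was nearly level across the groups. EPCAM (ENST00000263735, 1547 bases) had 294, 279 and 276 TPM in TE7 libraries, 285, 297 and 294 TPM in TA7 libraries, and 277, 296 and 294 TPM in WT libraries. The 3 groups overlapped, and the means were 283 ± 9.80 TPM in TE7, 292 ± 6.20 TPM in TA7 and 289 ± 10.4 TPM in WT (SD, n = 3 each). In the count fit, EPCAM differed by a log2 fold change of 0.08 ± 0.07 in TE7 over WT (SE; adjusted p = 0.561), -0.02 ± 0.07 in TA7 over WT (adjusted p = 1) and 0.10 ± 0.07 in TE7 over TA7 (adjusted p = 0.516), all by the edgeR quasi-likelihood test. The sign of the EPCAM difference depends on the scale, being above 0 in TE7 over WT from read counts and -0.03 from TPM (limma). The effective length of EPCAM, the count of read start positions estimated per library, was 1161.5 to 1253.5 bases in TE7 and 1139.5 to 1170.4 bases in WT, and with it as an offset the value was 0.02 (adjusted p = 0.863, edgeR). EPCAM was not called in any comparison under any alternative run.

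CDH1, the adherens junction cadherin, fell in TE7. CDH1 (ENST00000261769, 4811 bases) had 21.6, 20.3 and 21.1 TPM in TE7 libraries, 30.1, 32.1 and 29.8 TPM in TA7 libraries, and 29.9, 32.2 and 35.9 TPM in WT libraries. Every TE7 library lay below every TA7 and WT library, while TA7 and WT overlapped in TPM. CDH1 in TE7 was 0.665 times its level in WT (log2 fold change -0.59 ± 0.05, adjusted p = 0.000761, edgeR) and 1.33-fold lower in TE7 than in TA7 (-0.41 ± 0.05, adjusted p = 0.00914, edgeR). In bulk RNA, fewer cells expressing a gene and less RNA per cell cannot be told apart.

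Transcripts as long as CDH1 tended to be lower in TE7. Among 4875 transcripts of at least 4000 and under 8000 bases with a mean of at least 5 CPM (counts scaled to library size), the median log2 fold change in TE7 over WT was -0.16, and 22% were called lower. With the length trend of each library removed, an alternative chosen after seeing the data, CDH1 was still lower in TE7 than in WT, with a log2 fold change of -0.47 (adjusted p = 0.00068, edgeR). Its difference between TE7 and TA7 was then -0.27 (adjusted p = 0.0164, edgeR), against -0.41 without that step. The call for CDH1 in TE7 over TA7 was lost without TE7 replicate 2 (-0.40, adjusted p = 0.0612, edgeR) and without TA7 replicate 2 (-0.38, adjusted p = 0.0563, edgeR).

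KRT18 moved the other way. The major of its 2 listed transcripts, KRT18 (ENST00000388835, 1413 bases), had 869, 848 and 914 TPM in TE7 libraries, 504, 511 and 501 TPM in TA7 libraries, and 432, 392 and 372 TPM in WT libraries. All TE7 libraries exceeded all others, and in TPM the TA7 libraries lay wholly above WT. The major KRT18 transcript ranked 128 to 136 among all transcripts by TPM in TE7 libraries, 189 to 200 in TA7 libraries and 226 to 247 in WT libraries. It was 2.20-fold higher in TE7 than in WT (log2 fold change 1.14 ± 0.11, adjusted p = 0.00137, edgeR) and 1.88-fold higher in TE7 than in TA7 (0.91 ± 0.11, adjusted p = 0.00954, edgeR). TA7 over WT gave 0.22 ± 0.11 (adjusted p = 0.694, edgeR), and in CPM those groups overlapped through WT replicate 1, which had 556 CPM against 448 and 401 CPM in the other WT libraries. Without WT replicate 1 that value was 0.38 (adjusted p = 0.0748, edgeR).

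The minor transcript, KRT18 (ENST00000388837, 1420 bases), had 22.4, 26.7 and 25.6 TPM in TE7 libraries, 19.0, 18.7 and 16.5 TPM in TA7 libraries, and 16.3, 16.9 and 13.8 TPM in WT libraries. TE7 again lay above both other groups, and TA7 and WT overlapped. The minor KRT18 transcript was 1.59-fold higher in TE7 than in WT (log2 fold change 0.67 ± 0.14, adjusted p = 0.0269, edgeR). This call was lost without TE7 replicate 2 (adjusted p = 0.0964), TE7 replicate 3 (0.0846), TA7 replicate 2 (0.0523), WT replicate 2 (0.0744) or WT replicate 3 (0.0583), and when only the TE7 and WT libraries entered the edgeR fit (0.0614). For TE7 over TA7 the minor transcript gave 0.58 ± 0.14 (adjusted p = 0.074, edgeR), and for TA7 over WT 0.09 ± 0.14 (adjusted p = 1, edgeR).

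Reads shared by the 2 KRT18 transcripts can move between them in the quantification, so their sum was also tested. Summed KRT18 was 891, 875 and 940 TPM in TE7 libraries, 523, 529 and 518 TPM in TA7 libraries, and 448, 409 and 386 TPM in WT libraries. The sum was 2.18-fold higher in TE7 than in WT (log2 fold change 1.12 ± 0.11, adjusted p = 0.00144, edgeR) and 1.87-fold higher in TE7 than in TA7 (0.90 ± 0.11, adjusted p = 0.00987, edgeR), with 0.22 ± 0.11 in TA7 over WT (adjusted p = 0.701, edgeR). The calls in TE7 over TA7 were lost without TA7 replicate 2 (adjusted p = 0.0551 for the major transcript and 0.056 for the sum, edgeR) or TA7 replicate 3 (0.0578 and 0.0593), and for the sum also without TE7 replicate 2 (0.0512), with log2 fold changes of 0.90 to 0.92. KRT18 has processed copies elsewhere in the genome, and how reads matching several copies were divided was not tested.

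The major KRT18 transcript held nearly all of the KRT18 signal in every group, with a slightly larger share in TE7. The major transcript held 97.2 ± 0.272% of the summed TPM in TE7, 96.5 ± 0.231% in TA7 and 96.2 ± 0.304% in WT (SD, n = 3 each). The differences were 1.02 percentage points in TE7 minus WT (p = 0.1), 0.687 in TE7 minus TA7 (p = 0.1) and 0.331 in TA7 minus WT (p = 0.2), by two-sided exact permutation tests whose smallest possible p is 0.1. By library the share was 96.9% to 97.5% in TE7, 96.4% to 96.8% in TA7 and 95.9% to 96.4% in WT, so TE7 lay above both other groups, and TA7 and WT overlapped. With 3 against 3 libraries that test cannot reach 0.05, so its p-values do not show that the split was the same.

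Transcripts as short as KRT18 tended to be higher in TE7, with a median log2 fold change over WT of 0.20 among 4191 transcripts of at least 1000 and under 2000 bases and 16.7% called higher. With the length trend removed, the major KRT18 transcript was higher in TE7 than in WT by 0.96 (adjusted p = 0.000195, edgeR) and the minor one by 0.49 (adjusted p = 0.0326, edgeR). In TE7 over TA7 that step gave 0.71 for the major transcript (adjusted p = 0.00263, edgeR) and 0.70 for the sum (adjusted p = 0.00276, edgeR). The minor transcript was then at 0.38 in TE7 over TA7 (adjusted p = 0.122, edgeR). EPCAM, which at 1547 bases falls in the same length class, became -0.10 in TE7 over WT (adjusted p = 0.314, edgeR).

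CDX2, the intestinal homeodomain factor, fell in TE7 too. CDX2 (ENST00000381020, 3448 bases) had 7.31, 7.44 and 8.38 TPM in TE7 libraries, 15.0, 16.3 and 15.7 TPM in TA7 libraries, and 23.3, 20.0 and 21.5 TPM in WT libraries. The 3 groups did not overlap, with TE7 lowest, TA7 between and WT highest. By TPM rank, CDX2 stood at 11126 to 12211 in TE7 libraries, 6661 to 6865 in TA7 libraries and 4440 to 5226 in WT libraries.

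CDX2 was 2.80-fold lower in TE7 than in WT (log2 fold change -1.48 ± 0.11, adjusted p = 0.000554, edgeR) and 1.86-fold lower in TE7 than in TA7 (-0.90 ± 0.11, adjusted p = 0.0105, edgeR). In TA7 over WT its log2 fold change was -0.59 ± 0.11, or 0.665 times the WT level, which did not pass in edgeR (adjusted p = 0.166) and passed in DESeq2 (adjusted p = 0.000121). The edgeR call for TE7 over TA7 was lost without TE7 replicate 2 (-0.89, adjusted p = 0.0593), TA7 replicate 2 (-0.88, adjusted p = 0.0561) or TA7 replicate 3 (-0.89, adjusted p = 0.0576). Transcripts of at least 2000 and under 4000 bases, the length class of CDX2, had a median log2 fold change of 0.09 in TE7 over WT, and with the length trend removed CDX2 was at -1.49 (adjusted p = 0.000261, edgeR).

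KRT20, the keratin of differentiated intestinal cells, was scarce and also fell in TE7. KRT20 (ENST00000167588, 1804 bases) had 50, 48 and 59 estimated reads in TE7 libraries, 111, 181 and 109 in TA7 libraries, and 149, 136 and 134 in WT libraries. These correspond to 0.531, 0.478 and 0.587 TPM in TE7, 1.27, 1.53 and 1.24 TPM in TA7, and 1.66, 1.59 and 1.55 TPM in WT. Each TE7 library lay below each TA7 and WT library, and TA7 lay below WT in TPM by a margin that closed in CPM, where the groups overlapped.

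KRT20 was 2.90-fold lower in TE7 than in WT (log2 fold change -1.54 ± 0.22, adjusted p = 0.00688, edgeR). On the log2(TPM + 1) scale, which compresses low levels, its difference was -0.77 (adjusted p = 0.00873, limma). KRT20 was 2.31-fold lower in TE7 than in TA7 (-1.21 ± 0.22, adjusted p = 0.0338, edgeR), a call lost in 10 of 22 alternatives. Those 10 were the fit without a filter on low counts (adjusted p = 0.113, edgeR), the fit with the replicate number as a block (0.0835), and the fits without TE7 replicate 1 (0.112), 2 (0.141) or 3 (0.0995), TA7 replicate 1 (0.0773), 2 (0.14) or 3 (0.112), or WT replicate 2 (0.0657) or 3 (0.0509). In TA7 over WT, KRT20 was at -0.33 ± 0.22 (adjusted p = 0.84, edgeR).

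**Figure D2:**
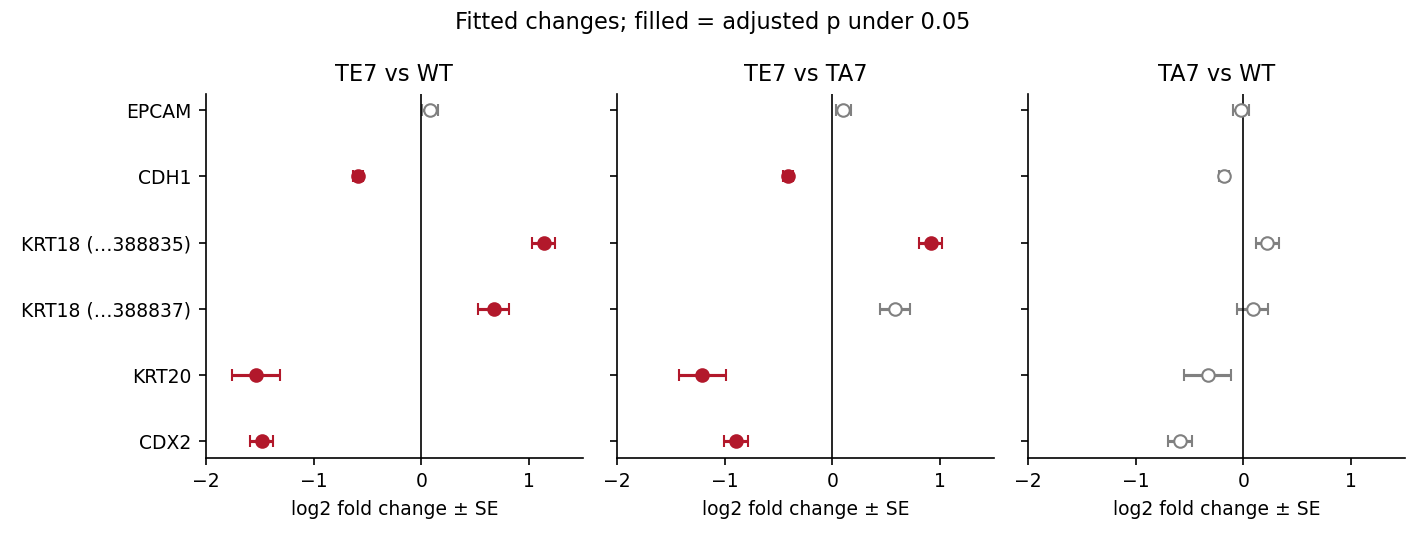
Fitted log2 fold changes with SE for the same 6 transcripts in TE7 over WT, TE7 over TA7 and TA7 over WT, with filled symbols for adjusted p under 0.05 (edgeR quasi-likelihood test). In TE7 over WT, KRT18 lies right of 0 and CDH1, CDX2 and KRT20 lie left of it, EPCAM is unfilled in every panel, and no symbol is filled in TA7 over WT.

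The DNA before the start sites of KRT20 and CDX2 is shown as a description. Whether CDX2 acts on either gene in these cells was not tested. The windows are the 250 bases before the RefSeq start of each gene on GRCh38.p14, whereas the submitters' processing notes name hg19, and the promoter table used here held 4 of the 8 genes (KRT20, CDX2, CEACAM5 and LGALS4). Capitals mark TTTAT or its reverse complement ATAAA, core letters of sites bound by CDX-type homeodomain proteins. The KRT20 window is chr17:40885243-40885492 and the CDX2 window is chr13:27969316-27969565, both on the minus strand and written 5′ to 3′.
KRT20: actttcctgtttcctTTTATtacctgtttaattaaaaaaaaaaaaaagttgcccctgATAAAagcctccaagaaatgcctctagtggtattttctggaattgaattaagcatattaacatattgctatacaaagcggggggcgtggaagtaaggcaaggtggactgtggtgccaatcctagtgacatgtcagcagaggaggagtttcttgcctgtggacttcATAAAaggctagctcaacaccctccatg
CDX2: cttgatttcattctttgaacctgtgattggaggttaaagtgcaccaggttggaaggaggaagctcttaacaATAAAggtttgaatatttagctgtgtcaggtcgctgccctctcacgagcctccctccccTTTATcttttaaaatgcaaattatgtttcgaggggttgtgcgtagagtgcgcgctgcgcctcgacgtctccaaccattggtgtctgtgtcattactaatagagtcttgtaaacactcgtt

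The KRT20 window held 3 such matches, 1 on the strand shown and 2 on the other, and the CDX2 window held 2. The CEACAM5 window held 1 and the LGALS4 window 0. The motif occurred in 32.7% of the 35116 promoter windows of the same length, and in 3 of the 4 windows here. A match describes the letters and is not evidence of binding. GC content was 41.2% in the KRT20 window, 45.2% in the CDX2 window, 53.2% in the CEACAM5 window and 63.2% in the LGALS4 window. It was not measured over the 35116 windows, so the counts of matches are not adjusted for it.

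The remaining intestinal genes were at the edge of detection. VIL1 (ENST00000248444, 6500 bases) had 21, 14 and 29 estimated reads in TE7 libraries, 16, 25 and 17 in TA7 libraries, and 2, 8 and 5 in WT libraries. Both TE7 and TA7 lay above WT and overlapped each other. VIL1 gave a log2 fold change of 1.97 ± 0.57 in TE7 over WT that did not pass in edgeR (adjusted p = 0.0744). Over its 21 alternatives the adjusted p ran from 0.0119 to 0.326, under 0.05 in 2 of them (DESeq2, and edgeR with the length trend removed). VIL1 passed the filter on low counts through the TE7 and TA7 libraries, where it is higher, so these p-values are given as a description. In TA7 over WT it gave 1.70 ± 0.57 (adjusted p = 0.51, edgeR), and in TE7 over TA7 0.27 (adjusted p = 0.869, edgeR).

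CEACAM5 (ENST00000221992, 3501 bases) had 17, 2 and 24 estimated reads in TE7 libraries, 0, 16 and 0 in TA7 libraries, and 0 in each WT library. TE7 replicate 2 and TA7 replicates 1 and 3 were thus close to WT. A floor of 3 reads per library is 0.0464 CPM on average in WT and covers counting error only. The observed mean was 4.38-fold above that floor in TE7 and 1.23-fold in TA7. No limit was set on the TE7 or TA7 side, so these are descriptions and not lower bounds. TE7 replicate 2, at 0.0287 CPM, lay below the WT floor. The test did not pass for CEACAM5 in TE7 over WT (adjusted p = 0.174), TA7 over WT (adjusted p = 0.73) or TE7 over TA7 (adjusted p = 0.705, edgeR).

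LGALS4 (ENST00000307751, 1121 bases) had 18, 0 and 5 estimated reads in TE7 libraries, 4, 7 and 5 in TA7 libraries, and 0, 2 and 0 in WT libraries. It did not reach the filter on low counts and was not tested, and the TE7 libraries spanned the values of both other groups. CEACAM5, like VIL1, passed that filter through the TE7 and TA7 libraries, which hold all of its reads.

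**Figure D3:**
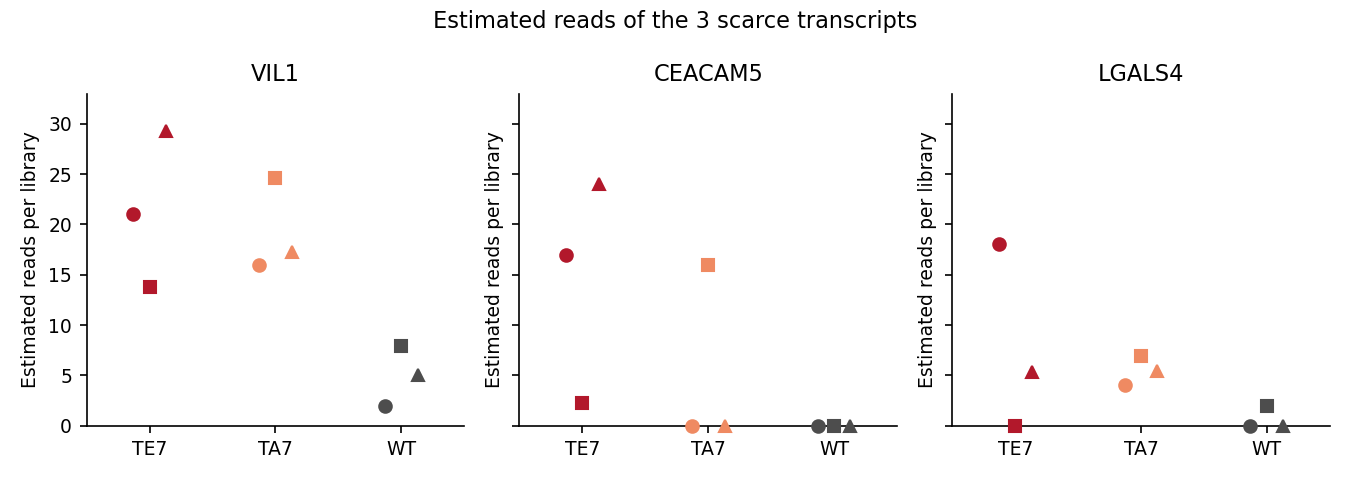
Estimated reads per library for VIL1, CEACAM5 and LGALS4, on 1 shared linear axis from 0, with symbols as replicates 1 (circle), 2 (square) and 3 (triangle). The highest value rounds to 29 reads, CEACAM5 is at 0 in all WT libraries, and the spread within TE7 is as wide as the gap between groups for CEACAM5 and LGALS4.

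Ratios between members of one library do not depend on how libraries are scaled, and in them the TE7 libraries again lay apart from the others. EPCAM was nearly level, so ratios to it largely repeat the TPM differences given above. They are a description and add no separate support. Summed KRT18 was 3.03, 3.13 and 3.41 times EPCAM by TPM in TE7 libraries, 1.83, 1.78 and 1.76 times in TA7 libraries, and 1.62, 1.38 and 1.31 times in WT libraries. CDX2 stood at 24.8, 26.7 and 30.4 TPM per 1000 TPM of EPCAM in TE7 libraries, 52.7, 54.7 and 53.5 in TA7 libraries, and 84.1, 67.7 and 73.2 in WT libraries. For both ratios the 3 groups did not overlap, and TA7 lay between TE7 and WT.

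CDH1 per 1000 TPM of EPCAM was 73.4, 72.7 and 76.3 in TE7 libraries, 105, 108 and 102 in TA7 libraries, and 108, 109 and 122 in WT libraries. KRT20 per 1000 TPM of EPCAM averaged 1.88 ± 0.218 in TE7, 4.61 ± 0.492 in TA7 and 5.55 ± 0.387 in WT (SD, n = 3 each). The TPM ratio of summed KRT18 to CDX2 averaged 117 ± 4.95 in TE7, 33.4 ± 1.20 in TA7 and 19.2 ± 1.24 in WT (SD, n = 3 each). KRT18 was already seen to rise in TE7 and CDX2 to fall. The separation of that ratio was therefore fixed in advance and adds no support. The share of all TPM held by the 9 transcripts, most of it KRT18 and EPCAM, was 0.118% to 0.125% in TE7, 0.0855% to 0.0877% in TA7 and 0.0739% to 0.0780% in WT libraries.

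**Figure D4:**
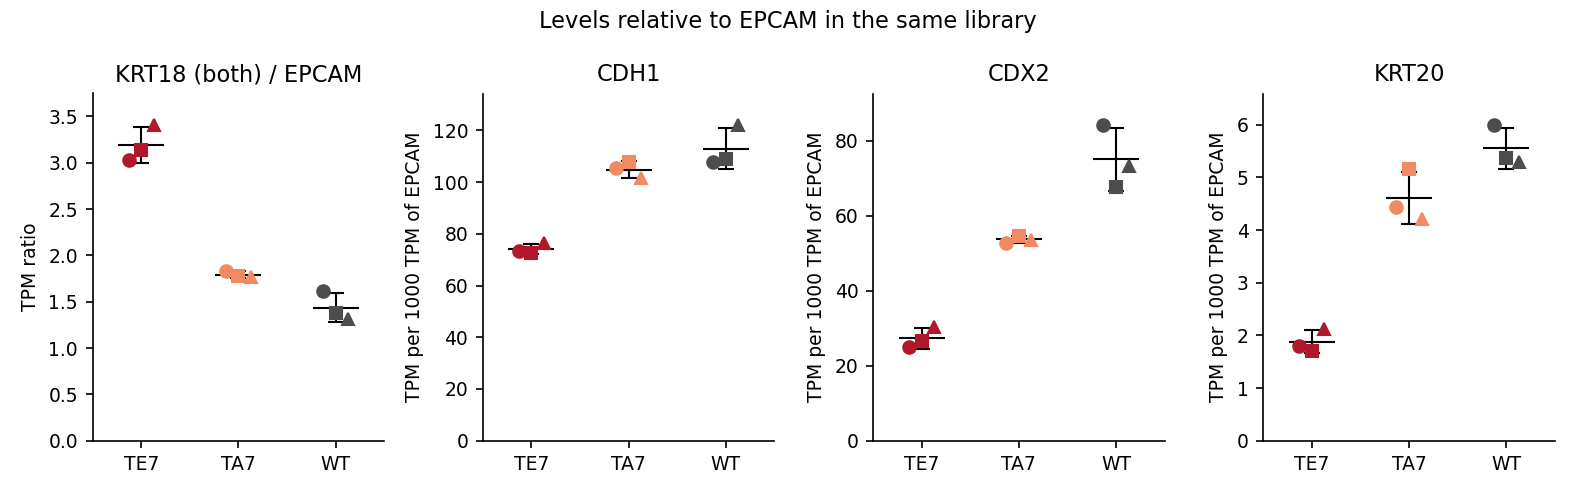
TPM relative to EPCAM in the same library for summed KRT18 (as a ratio), CDH1, CDX2 and KRT20 (per 1000 TPM of EPCAM), on linear axes from 0. Points are libraries, with mean and SD. KRT18 relative to EPCAM is highest in TE7, and CDH1, CDX2 and KRT20 relative to EPCAM are lowest in TE7.

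The comparison of TE7 with WT asks whether the form of CTR1 goes with a different epithelial profile. Of the 9 transcripts, 8 passed the filter on low counts and 5 were called: both KRT18 transcripts rose, and CDH1, CDX2 and KRT20 fell (edgeR, adjusted p under 0.05). Among all 78478 transcripts tested, 9.40% were called, 4.59% higher and 4.81% lower in TE7. The list was made with earlier results of these data known, so a count above that share is a description only. Transcripts with a mean of at least 5 CPM, as all called members but KRT20 have, were called more often. Of those from 1000 to 2000 bases, 16.7% were higher and 5.9% lower. The shares were 13.9% and 10.2% from 2000 to 4000 bases, and 7% and 22% from 4000 to 8000 bases. The groups overlapped in CPM for EPCAM and did not for the 5 called, where 32.9% of all tested did not. Those 5 were called on these same counts, so their lack of overlap adds no support. The groups did not overlap for VIL1 and CEACAM5 either, but those entered the test through the libraries where they are high. VIL1 and CEACAM5 are therefore not counted beside that share. The median log2 fold change over the 8 tested was 0.38, beside -0.02 over all transcripts tested. VIL1 and CEACAM5 are among the 8 and raise it, so it does not show a net rise of the set.

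For TE7 against TA7, 4 transcripts were called, the major KRT18 transcript as higher and CDH1, CDX2 and KRT20 as lower in TE7. Over all transcripts 3.07% were called, 1.29% higher and 1.78% lower. Because of how the list was made, the count is again only described beside that share. At a mean of at least 5 CPM, 5.4% were higher and 1.3% lower from 1000 to 2000 bases. The shares were 4.9% and 3.9% from 2000 to 4000 bases, and 2% and 11.5% from 4000 to 8000 bases. The groups did not overlap in CPM for 5 of the 9, namely those 4 and the minor KRT18 transcript, against 31.5% of all tested. The 4 were called on these same counts, so their lack of overlap adds no support. The median over the 8 tested was 0.19, beside -0.02 over all transcripts. It too is raised by VIL1 and CEACAM5, so no direction of the set is read from it. The count of 4 changed with single libraries left out. It was 0 without TA7 replicate 2, 1 (KRT18) without TE7 replicate 2 and 1 (CDH1) without TA7 replicate 3. In those fits 362 of 84245, 380 of 84425 and 298 of 84202 transcripts were called in all, beside 2411 of 78478 with every library. Over all fits with a library left out, log2 fold changes were -0.44 to -0.38 for CDH1 and 0.89 to 0.93 for the major KRT18 transcript. For CDX2 they were -0.95 to -0.85, and for KRT20 -1.27 to -1.10.

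For TA7 against WT, 0 of the 8 tested were called by edgeR, where 0.0612% of all transcripts were called, 0.0408% higher and 0.0204% lower. At an unadjusted p under 0.05 there were CDH1 and CDX2, where 7.73% of all transcripts passed, and VIL1, which is not counted beside that share because of how it passed the filter. DESeq2 called 2 (CDH1 and CDX2, both lower in TA7), against 2.81% of all. CDH1 gave a log2 fold change of -0.18 ± 0.05 (adjusted p = 0.365, edgeR) and had 114, 117 and 110 CPM in TA7 libraries against 131, 124 and 131 CPM in WT libraries. The groups overlapped in CPM for EPCAM, KRT20 and both KRT18 transcripts. They did not overlap for CDH1 and CDX2, lower in TA7, where 14.1% of all tested did not. They did not overlap for the scarce VIL1 and LGALS4 either, higher in TA7, which are not counted beside that share. The median over the 8 tested, again raised by VIL1 and CEACAM5, was 0.03, beside 0 over all transcripts, and is a description only.

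TE7 against WT and TA7 against WT share the WT libraries, so their values stand side by side without a test of likeness. The difference between the forms was tested by TE7 over TA7, which passed for CDH1, the major KRT18 transcript, CDX2 and KRT20.

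**Figure D5:**
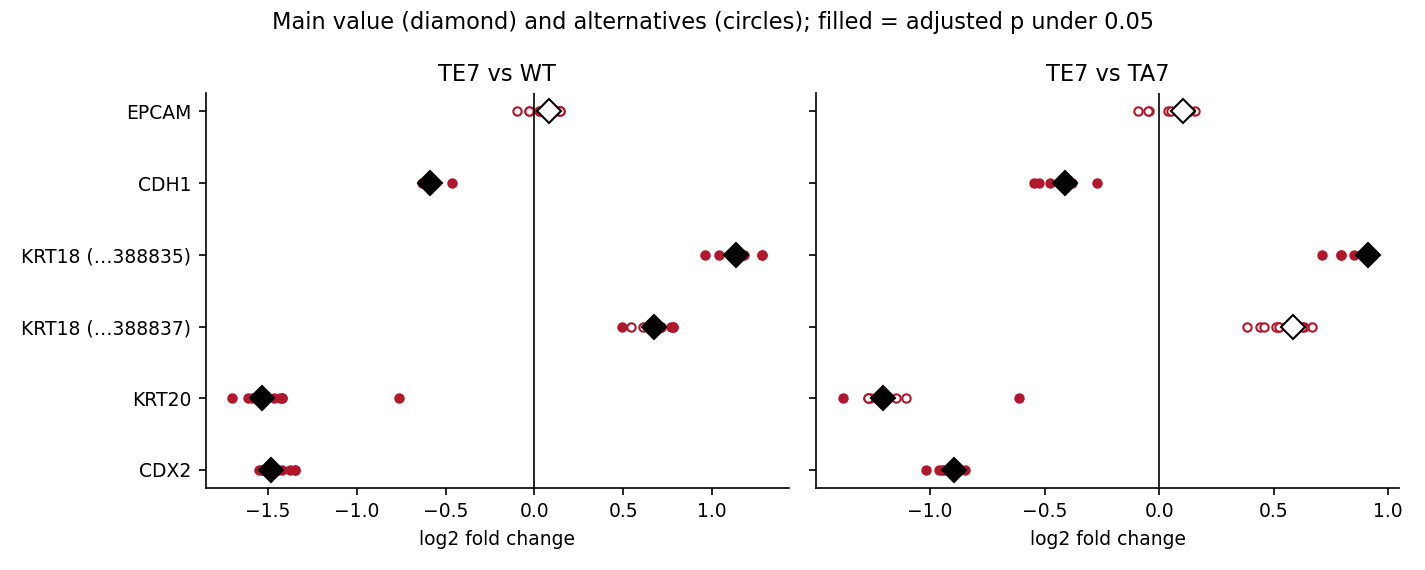
Log2 fold changes of the 6 transcripts in TE7 over WT and TE7 over TA7, with the reported value (diamond) and each of 22 alternatives (circles), filled where adjusted p is under 0.05. In TE7 over WT, CDH1, the major KRT18 transcript, CDX2 and KRT20 are filled under every alternative, EPCAM lies on both sides of 0, and the KRT20 value nearest 0 is the one on the log2(TPM + 1) scale.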

How the data were processed

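The 9 mRNA libraries were analysed out of 57 samples, and the other 48 are not analysed here. Per the labels' protocols, RNA was extracted with Trizol, selected with oligo-dT, and 1 ug entered a Tecan/Nugen kit. The submitters' processing notes name cutadapt 2.3, Salmon 1.3.0 and the hg19 build. Which transcript set, library type and bias options were used is not given in the sources used here. Each deposited table has columns for length, effective length, TPM and estimated count, per the file headers. Estimated counts carry no normalization and divide shared reads between transcripts, and the deposited TPM values are per effective length and sum to the same total in each library.

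Estimated counts were rounded and fitted with edgeR 4.0.16 on R 4.3.3 (default low-count filter with a minimum count of 10, TMM scaling, glmQLFit and glmQLFTest, group as the only term, 9 libraries). Benjamini-Hochberg adjustment ran over the 78478 transcripts tested, which hold 99.67% to 99.79% of the reads, with a threshold of 0.05. SE is the log2 fold change divided by the square root of F. CPM was computed with the TMM factors. The fit was tried first on simulated counts with known changes, and the outcome is not given here. The changes were put into transcripts of at least 5 CPM, so the trial does not cover KRT20, VIL1 or CEACAM5. Alternatives used DESeq2 1.42.0, limma 3.58.1 on log2(TPM + 1) or log2(TPM + 0.1), other scalings and filters, a replicate block, an effective length offset, and each library left out. The labels name no molecular identifiers, so floors cover counting error only.

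Every listed transcript is named, whatever its values. The members and lists were chosen with earlier results of these data known. Identifiers of the tables matched 0 entries of the gene name tables used here, so further lists of junction, intestinal, stem cell and mesenchymal genes, and markers of fibroblasts, leukocytes and endothelium, are not analysed here.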

Additional observations from a re-analysis of the deposited data

Results flagged for a closer look

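For 4 transcripts and for summed KRT18, the difference from WT was not the same in the TE7 and TA7 forms, as tested directly by TE7 over TA7 (edgeR, adjusted p under 0.05, n = 3 per group). The log2 differences between the forms were -0.41 for CDH1, 0.91 for the major KRT18 transcript, -1.21 for KRT20, -0.90 for CDX2 and 0.90 for summed KRT18. In each of these 5 cases all TE7 libraries lay on one side of all TA7 libraries. Every one of these calls was lost without TA7 replicate 2, with log2 differences of -0.38, 0.92, -1.10, -0.88 and 0.91 in the same order. Leaving out TE7 replicate 2 ended the calls of CDH1, KRT20, CDX2 and summed KRT18, and leaving out TA7 replicate 3 ended those of both KRT18 measures, KRT20 and CDX2.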

How the results depend on the processing

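In TE7 over WT, CDH1 (-0.63 to -0.47), the major KRT18 transcript (0.96 to 1.28), KRT20 (-1.70 to -0.77) and CDX2 (-1.55 to -1.35) kept their direction and call in all 22 alternatives, and the count called was 4 to 5 with any library left out. The minor KRT18 transcript lost its call in 6 of 22. In TA7 over WT, DESeq2 called 2 transcripts where edgeR called 0. In TE7 over TA7, the count ran from 0 to 4 with a library left out. Summed KRT18 kept log2 fold changes of 0.88 to 0.92 in those fits while losing its call 3 times, and those fits hold fewer samples. Over all its alternatives summed KRT18 ran from 0.70, with the length trend removed, to 0.92. The sign of EPCAM changed: in TE7 over WT to -0.0305 and -0.0306 under limma (pseudocounts 1 and 0.1) and -0.0999 with the length trend removed, in TE7 over TA7 to -0.0465, -0.0466 and -0.0923 under the same settings, and in TA7 over WT to 0.0364 with library size alone, 0.016 under limma with either pseudocount, 0.0437 without WT replicate 1 and TA7 replicate 1, and -0.0713 to 0.0451 over the fits with a library left out. The minor KRT18 transcript in TA7 over WT ran from -0.0411 to 0.203 with a library left out. The cause of these changes was not tested.

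With the replicate number as a block, the counts were 5 in TE7 over WT, 0 in TA7 over WT and 3 in TE7 over TA7, where KRT20 lost its call (adjusted p = 0.0835, edgeR). Same-numbered libraries of different groups had correlations of their deviations between -0.043 and 0.226, and differently numbered ones between -0.244 and 0.111. In both comparisons with WT, libraries numbered 1 and 3 correlated best with their own number, and those numbered 2 did not. Whether the numbers pair the libraries is therefore not settled. No value was had for VIL1 and CEACAM5 under the filter of 1 CPM, nor for CEACAM5 in fits of 2 groups against WT, in TA7 over WT without TA7 replicate 2 and in TE7 over TA7 under DESeq2. VIL1, CEACAM5 and LGALS4 had 0 to 29 estimated reads per library, so their values are limited by low counts.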
